A study of Mus musculus with 18 samples.

Results

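The 9 genes described here were Mapk10, Hmcn2, Cpne7 and Scara5, which were higher in the left atrium (LA), and A2m, Arpp21, Gsg1l, Lepr and Smarcd3, which were higher in the right atrium (RA). They were chosen by their counts in WT libraries, for a large difference between right and left atria, with no stated cutoff. All 9 were found by symbol among 56691 gene IDs, 1 row each, and all 9 were among the 18018 genes with enough counts to be tested. Because WT libraries chose them, their WT values are given as a description, and the differences tested are between Het and KO libraries. The WT libraries were part of the same fit, so they also enter the low-count filter and its estimate of spread.

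Messenger RNA was sequenced from LA and RA of 9 mice, 3 of each genotype: wildtype (WT), Het and KO, the last 2 named for Zfhx3, a zinc finger homeobox transcription factor gene. Every animal gave 1 library per atrium, and the labels name no treatment, allele, Cre driver, age, sex or batch. The counts of WT RA replicates 1 and 2 were identical for every gene, so they were counted as 1 library, which leaves 2 WT RA libraries, 3 in each other group and 17 in all (18000583 to 33483085 counts per library).

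Zfhx3 itself was at 13.9 to 20.4 CPM (counts scaled to the library total) in all 17 libraries, with no difference called between Het and KO or between their atria. A count over the whole gene does not check the genotype labels, since the altered part is not given, and Het and KO are therefore the labels' names. Xist, which is made from an inactive X chromosome, was at 0.403 to 1.10 CPM in 9 libraries (all of WT and KO replicates 2 and 3) and at 576 to 767 CPM in 8 (all of Het and KO replicate 1), and Y-linked Ddx3y was at 109 to 176 CPM in the first and 0 in the second. WT LA libraries varied widely in the summed levels of fibroblast markers (934 to 2423 CPM) and macrophage markers (54.3 to 205 CPM). Replicate 3 was the lowest of them in both.

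The left and right atria form from different sides of the embryo and keep different gene expression in the adult. In the adult mouse heart the BMP family ligand Bmp10 is known as a product of right atrial muscle cells. The 9 genes are not 1 pathway: they encode a stress kinase, matrix, membrane and receptor proteins, a protease inhibitor, an RNA-binding protein and a chromatin subunit.

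Promoter sequences of RefSeq (GRCm38.p6), which run from 250 bases before to 50 after a transcript start, were matched by symbol for 5 of the 9 genes, as 15 entries. Of these, 1 entry for each of 4 genes is shown, as the sequence beside a transcript start of genes from either side. The Smarcd3 entry lies wholly inside the span of that gene (chr5:24590818-24624411), so its start is not at the 5′ end of the span. All 15 were searched on both strands for 5 short motifs: the T-box motif AGGTGT, the motif GATAAG of GATA factors, the NKX2-5 motif CACTTG, the cyclic AMP response element TGACGTCA and the E-box CACGTG. None of the 15 held CACGTG, which was in 7.15% of 32851 promoters of the same length. Capitals mark the matches below, and each line reads 5′ to 3′ on the strand of its gene.
Mapk10, chr5:103211285-103211584, minus strand: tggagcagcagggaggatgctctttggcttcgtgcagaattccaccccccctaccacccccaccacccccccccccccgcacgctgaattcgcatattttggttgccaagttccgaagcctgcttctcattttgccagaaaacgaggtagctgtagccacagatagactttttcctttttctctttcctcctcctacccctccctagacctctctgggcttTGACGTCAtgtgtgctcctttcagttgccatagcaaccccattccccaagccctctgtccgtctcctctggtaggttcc
Hmcn2, chr2:31314082-31314381, plus strand: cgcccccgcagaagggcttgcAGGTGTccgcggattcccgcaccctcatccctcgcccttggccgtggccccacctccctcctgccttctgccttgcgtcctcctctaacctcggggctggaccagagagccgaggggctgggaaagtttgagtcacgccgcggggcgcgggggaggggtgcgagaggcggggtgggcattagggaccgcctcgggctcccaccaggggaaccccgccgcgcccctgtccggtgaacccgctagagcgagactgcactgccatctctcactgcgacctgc
Lepr, chr4:101717157-101717456, plus strand: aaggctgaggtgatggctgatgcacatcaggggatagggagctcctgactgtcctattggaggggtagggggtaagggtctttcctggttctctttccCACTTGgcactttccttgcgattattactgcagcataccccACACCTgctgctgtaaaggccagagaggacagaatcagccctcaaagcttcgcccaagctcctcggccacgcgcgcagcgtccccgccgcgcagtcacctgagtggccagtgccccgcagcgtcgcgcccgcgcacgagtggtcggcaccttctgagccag
Smarcd3, chr5:24601953-24602252, minus strand: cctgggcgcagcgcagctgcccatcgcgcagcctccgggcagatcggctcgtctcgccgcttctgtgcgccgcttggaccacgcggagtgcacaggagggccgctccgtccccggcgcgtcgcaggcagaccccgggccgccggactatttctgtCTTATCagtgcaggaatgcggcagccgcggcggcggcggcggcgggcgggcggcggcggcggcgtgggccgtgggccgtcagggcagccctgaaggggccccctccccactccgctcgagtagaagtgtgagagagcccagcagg

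The Mapk10 entry held TGACGTCA at position -29 from its start, a motif in 1.79% of all promoters. The T-box letters AGGTGT, in 13.7% of all promoters, were in Hmcn2 at -229 and, on the opposite strand, in Lepr at -111. Lepr also held CACTTG at -152 (13.6% of all promoters), and Smarcd3 held GATAAG on the opposite strand at -95 (7.44% of all promoters). Among the entries not shown, Arpp21 held AGGTGT in 3, at -85 on its own strand and at -163 and -73 on the opposite strand, these last being 1 site in overlapping entries. CACTTG was on the opposite strand in 1 Arpp21 entry at -73 and in the second Mapk10 entry at -42. So AGGTGT was in a gene that was higher in LA (Hmcn2) and in genes that were higher in RA (Lepr and Arpp21), and no motif was found in all 4 entries shown. A match is a description of letters and was not tested as a binding site.

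**Figure D1:**
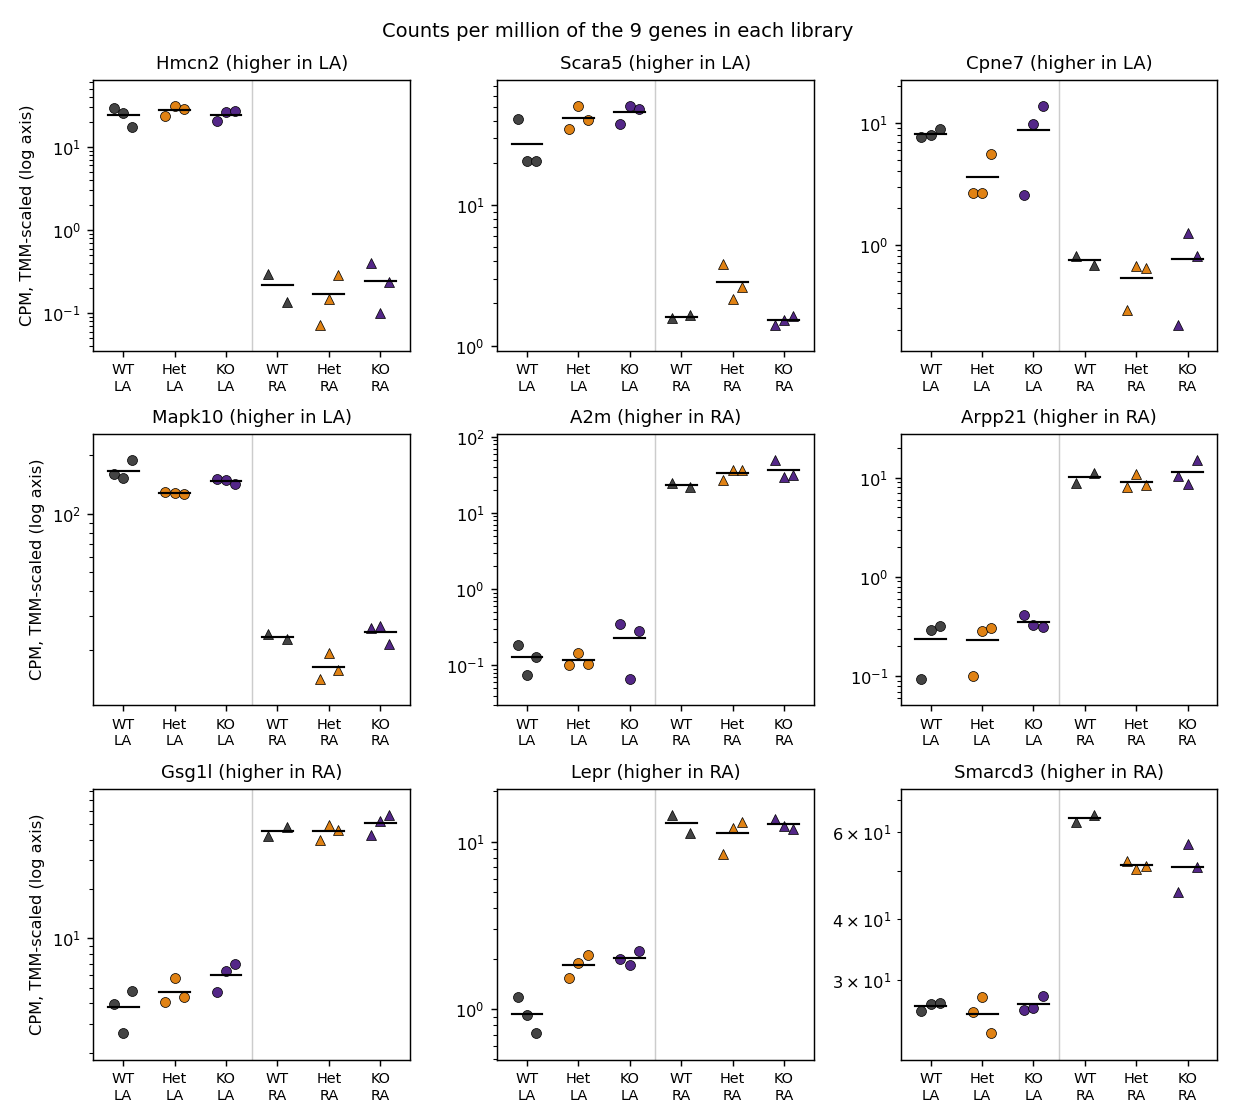
CPM (TMM-scaled, log axis) of each gene in each library, by genotype and atrium, with circles for LA, triangles for RA and a line at the group mean. In every genotype the LA and RA libraries of each gene are apart, with the widest gaps in A2m and Hmcn2 and the narrowest in Smarcd3.

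All 9 genes differed between right and left atria in Het and again in KO, in the direction of WT (edgeR, Benjamini-Hochberg adjusted p). In each genotype 5 were higher and 4 lower in RA. Over all tested genes 7.69% were called in Het (3.32% higher and 4.37% lower) and 8.35% in KO (3.66% higher and 4.68% lower). The median size of the difference was 3.25 on the log2 scale over the 9 genes against 0.16 over all genes in Het, and 3.45 against 0.15 in KO. With the animal as a block and only the Het and KO libraries, all 9 were called as well, among 3240 calls over all genes in Het and 3226 in KO. Those libraries without the block gave 1523 and 1632 calls, and Cpne7 was then not called in Het (edgeR adjusted p = 0.0583). All 17 libraries without the block gave 1386 and 1504 calls. In each gene the Het libraries of the atria did not overlap, as in 24.8% of all tested genes, and neither did those of KO, as in 26.4%. Without overlap the sign of RA minus LA within an animal is fixed, so its agreement in 6 of 6 Het and KO animals adds nothing further. In bulk tissue, fewer cells of a type and less RNA per cell cannot be told apart.

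The genes were not equally one-sided. Taking the group means of both atria as a whole, the lower atrium held 0.344 to 0.623% for A2m and 0.61 to 0.989% for Hmcn2 over the 3 genotypes. It held 2.32 to 3.01% for Arpp21, 3.22 to 6.36% for Scara5, 6.78 to 14.1% for Lepr, 7.73 to 10.6% for Gsg1l, 8.07 to 12.8% for Cpne7 and 11.4 to 14.3% for Mapk10. For Smarcd3 it held 29.3 to 34.4%, so Smarcd3 was expressed well in both atria and is not nearly confined to either. By size of the WT difference Smarcd3 ranked 884 of 18018 genes, while A2m ranked 8 and Hmcn2 15.

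Hmcn2 (chr2:31314415-31460738, plus strand, GRCm38) encodes hemicentin 2, a large extracellular matrix protein. The Hmcn2 level in LA was 29.6, 25.3 and 17.4 CPM (WT), 23.5, 31.2 and 28.5 CPM (Het), and 20.5, 26.1 and 27 CPM (KO). The Hmcn2 level in RA was 0.297 and 0.137 CPM (WT), 0.073, 0.147 and 0.29 CPM (Het), and 0.397, 0.102 and 0.237 CPM (KO). It was thus near zero in every RA library, and the 3 Het RA libraries together held 16 counts (0.18 CPM, Poisson interval 0.103 to 0.292). RA was lower by a log2 difference of -7.24 in Het (SE 0.33, edgeR adjusted p = 5.24e-09) and -6.69 in KO (SE 0.33, edgeR adjusted p = 8.01e-09). These placed it 8th and 10th of all tested genes by size.

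Scara5 (chr14:65666403-65764826, plus strand) encodes a class A scavenger receptor that binds ferritin. The Scara5 level in LA was 40.9, 20.6 and 20.6 CPM (WT), 34.9, 50.5 and 40.5 CPM (Het), and 37.8, 50.8 and 48.4 CPM (KO). The Scara5 level in RA was 1.57 and 1.64 CPM (WT), 3.8, 2.14 and 2.61 CPM (Het), and 1.41, 1.52 and 1.63 CPM (KO). The lowest LA library of any genotype was above the highest RA library, and Het had the highest RA levels. The log2 difference of RA from LA was -3.88 in Het (SE 0.29, edgeR adjusted p = 2.51e-06) and -4.90 in KO (SE 0.32, edgeR adjusted p = 5.53e-07).

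Mapk10 (chr5:102907948-103211334, minus strand) encodes JNK3, a stress-activated kinase best known from neurons. The Mapk10 level in LA was 159, 153 and 187 CPM (WT), 130, 127 and 126 CPM (Het), and 150, 150 and 142 CPM (KO). The Mapk10 level in RA was 24.1 and 22.7 CPM (WT), 14.2, 19.4 and 15.7 CPM (Het), and 25.9, 26.4 and 21.5 CPM (KO). The atria did not overlap, and RA kept a level of 14 CPM or more in every library. The log2 difference was -2.96 in Het (SE 0.11, edgeR adjusted p = 1.64e-11) and -2.58 in KO (SE 0.10, edgeR adjusted p = 1.1e-10).

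Cpne7 (chr8:123117374-123135182, plus strand) encodes a copine, a protein that binds phospholipid in the presence of calcium, and it varied most between animals. The Cpne7 level in LA was 7.6, 7.93 and 8.88 CPM (WT), 2.64, 2.66 and 5.54 CPM (Het), and 2.54, 9.72 and 13.8 CPM (KO). The Cpne7 level in RA was 0.806 and 0.684 CPM (WT), 0.292, 0.664 and 0.639 CPM (Het), and 0.22, 1.25 and 0.814 CPM (KO). LA was above RA in every genotype, but the KO LA libraries spanned a wide range. The log2 difference was -2.71 in Het (SE 0.66, interval -4.13 to -1.29, edgeR adjusted p = 0.0227) and -3.45 in KO (SE 0.60, edgeR adjusted p = 0.00256). The Het call was lost without Het RA replicate 1 (adjusted p = 0.0917), 2 (0.0605) or 3 (0.0705), without Het LA replicate 3 (0.0771), with only the Het and KO libraries (0.0583) and in limma-voom (0.187), and the KO call in limma-voom (0.0534).

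A2m (chr6:121635376-121679227, plus strand) encodes alpha-2-macroglobulin, a secreted protease inhibitor. The A2m level in RA was 24.5 and 22 CPM (WT), 27.1, 37 and 36.7 CPM (Het), and 48.9, 29.7 and 31.2 CPM (KO). The A2m level in LA was 0.188, 0.0738 and 0.13 CPM (WT), 0.102, 0.144 and 0.103 CPM (Het), and 0.344, 0.0661 and 0.279 CPM (KO). It was near zero in every LA library, with 9 counts in the 3 Het LA libraries together (0.117 CPM, Poisson interval 0.0535 to 0.222) and 21 in KO (0.229 CPM, 0.142 to 0.35). The log2 difference was 8.11 in Het (SE 0.35, edgeR adjusted p = 3.64e-09) and 7.29 in KO (SE 0.31, edgeR adjusted p = 2.26e-09). Among genes higher in RA it ranked 2nd in Het and 3rd in KO by size.

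Arpp21 (chr9:112065091-112235938, minus strand) encodes a cyclic AMP-regulated phosphoprotein with an RNA-binding domain. The Arpp21 level in RA was 8.91 and 11.1 CPM (WT), 8, 10.8 and 8.37 CPM (Het), and 10.4, 8.63 and 14.9 CPM (KO). The Arpp21 level in LA was 0.0939, 0.295 and 0.324 CPM (WT), 0.102, 0.288 and 0.308 CPM (Het), and 0.412, 0.331 and 0.31 CPM (KO). The low level in LA rests on 17 counts in Het (0.221 CPM, Poisson interval 0.129 to 0.354) and 32 in KO (0.349 CPM, 0.239 to 0.493). The log2 difference was 5.32 in Het (SE 0.32, edgeR adjusted p = 1.42e-08) and 4.997 in KO (SE 0.29, edgeR adjusted p = 8.01e-09).

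Arpp21 also carries the gene of a microRNA, Mir128-2, on its own strand, at chr9:112118636-112118711. Its main mature product in RefSeq is shown because the host gene differs between the atria, with the seed (bases 2 to 8) in capitals; the microRNA gene had too few counts to be tested.
mmu-miR-128-3p: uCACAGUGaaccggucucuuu

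Gsg1l (chr7:125878420-126082411, minus strand) encodes an auxiliary subunit of AMPA-type glutamate receptors. The Gsg1l level in RA was 42.6 and 48.1 CPM (WT), 40.1, 49.5 and 46.2 CPM (Het), and 42.9, 52.2 and 57 CPM (KO). The Gsg1l level in LA was 3.99, 2.62 and 4.8 CPM (WT), 4.1, 5.72 and 4.36 CPM (Het), and 4.67, 6.35 and 6.95 CPM (KO). The atria were several-fold apart in all genotypes. The log2 difference was 3.25 in Het (SE 0.19, edgeR adjusted p = 6.22e-08) and 3.08 in KO (SE 0.18, edgeR adjusted p = 6.42e-08).

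Lepr (chr4:101717404-101815352, plus strand) encodes the receptor of leptin, a hormone of fat tissue. The Lepr level in RA was 14.4 and 11.3 CPM (WT), 8.4, 12 and 13.1 CPM (Het), and 13.7, 12.4 and 11.9 CPM (KO). The Lepr level in LA was 1.17, 0.922 and 0.713 CPM (WT), 1.52, 1.87 and 2.1 CPM (Het), and 1.99, 1.82 and 2.23 CPM (KO). The RA libraries of the genotypes overlapped, and in LA every Het and KO library was above every WT library. The log2 difference of RA from LA was 2.62 in Het (SE 0.19, edgeR adjusted p = 1.02e-07) and 2.65 in KO (SE 0.18, edgeR adjusted p = 4.94e-08).

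Smarcd3 (chr5:24590818-24624411, minus strand) encodes BAF60c, a subunit of the BAF chromatin remodelling complex with a known role in heart development. The Smarcd3 level in RA was 63.1 and 65.1 CPM (WT), 52.4, 50.4 and 51.3 CPM (Het), and 45.4, 56.7 and 51 CPM (KO). The Smarcd3 level in LA was 25.9, 26.8 and 26.8 CPM (WT), 25.7, 27.7 and 23.3 CPM (Het), and 26.1, 26.3 and 27.8 CPM (KO). Its atria did not overlap in any genotype although the difference was the smallest of the 9, a log2 difference of 1.004 in Het (SE 0.08, edgeR adjusted p = 2.3e-07) and 0.93 in KO (SE 0.08, edgeR adjusted p = 4.88e-07).

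**Figure D2:**
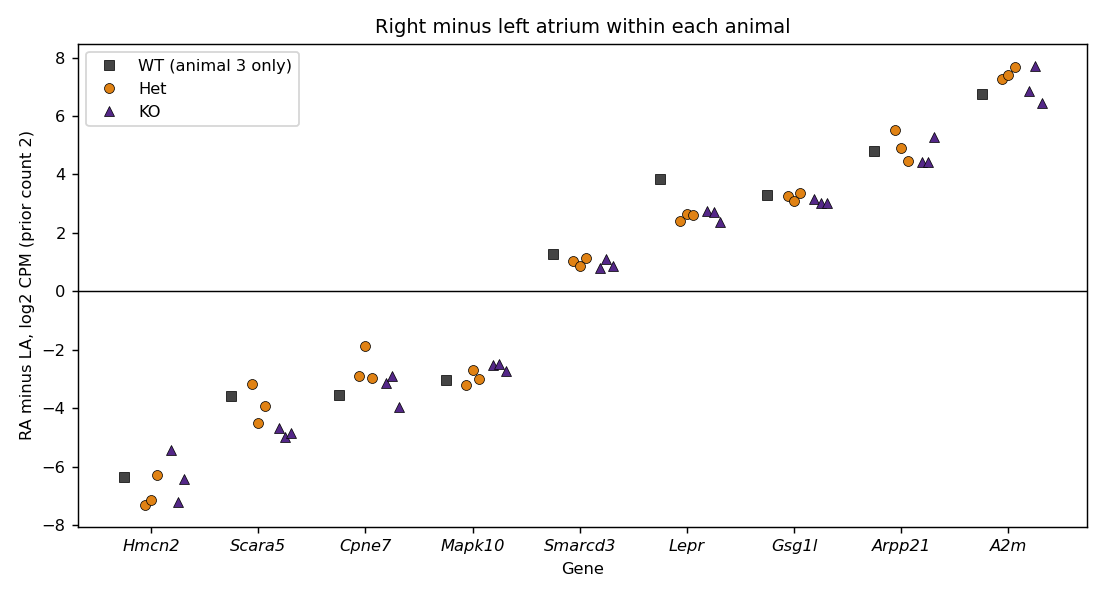
RA minus LA in log2 CPM (prior count 2) within each animal, for 3 Het animals, 3 KO animals and the 1 WT animal whose pair is certain. All points of Hmcn2, Scara5, Cpne7 and Mapk10 lie below 0 and all points of the other 5 genes above it.

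Within the Het and KO animals the difference of RA from LA in log2 CPM spanned little for some genes and much for others. It ran from 0.80 to 1.14 in Smarcd3, from 2.38 to 2.74 in Lepr, from 3.02 to 3.38 in Gsg1l and from -3.19 to -2.50 in Mapk10. The span was wider in Arpp21 (4.42 to 5.51), A2m (6.46 to 7.72), Hmcn2 (-7.31 to -5.44), Scara5 (-4.99 to -3.17) and Cpne7 (-3.96 to -1.89). A2m, Arpp21 and Hmcn2 had single-digit or low double-digit counts in their low atrium, where counting error is large, and Cpne7 in RA had 8 to 22 counts in Het and as few as 5 in KO.

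Levels were compared between genes as CPM per kb of exon (the union of all annotated exons), each in its higher atrium. In Het, Gsg1l (11.5 ± 1.22, SD, n = 3) and Mapk10 (11.5 ± 0.166) were highest and their libraries overlapped, followed by Smarcd3 (10.04 ± 0.195), Scara5 (6.89 ± 1.301) and A2m (4.79 ± 0.804), whose libraries did not overlap their neighbours in the order. Hmcn2 (1.73 ± 0.243) and Lepr (1.58 ± 0.350) overlapped, as did Cpne7 (0.686 ± 0.317) and Arpp21 (0.520 ± 0.0887) at the low end. In KO the order was Mapk10 (13.2 ± 0.434), Gsg1l (12.9 ± 1.83), Smarcd3 (9.97 ± 1.10), Scara5 (7.50 ± 1.14), A2m (5.21 ± 1.52), Lepr (1.80 ± 0.130), Cpne7 (1.65 ± 1.08), Hmcn2 (1.53 ± 0.220) and Arpp21 (0.649 ± 0.185). There only Smarcd3 and Scara5, A2m and Lepr, and Hmcn2 and Arpp21 were neighbours without overlap. The genes with the most extreme ratios, A2m and Hmcn2, were thus of middle and low level.

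**Figure D3:**
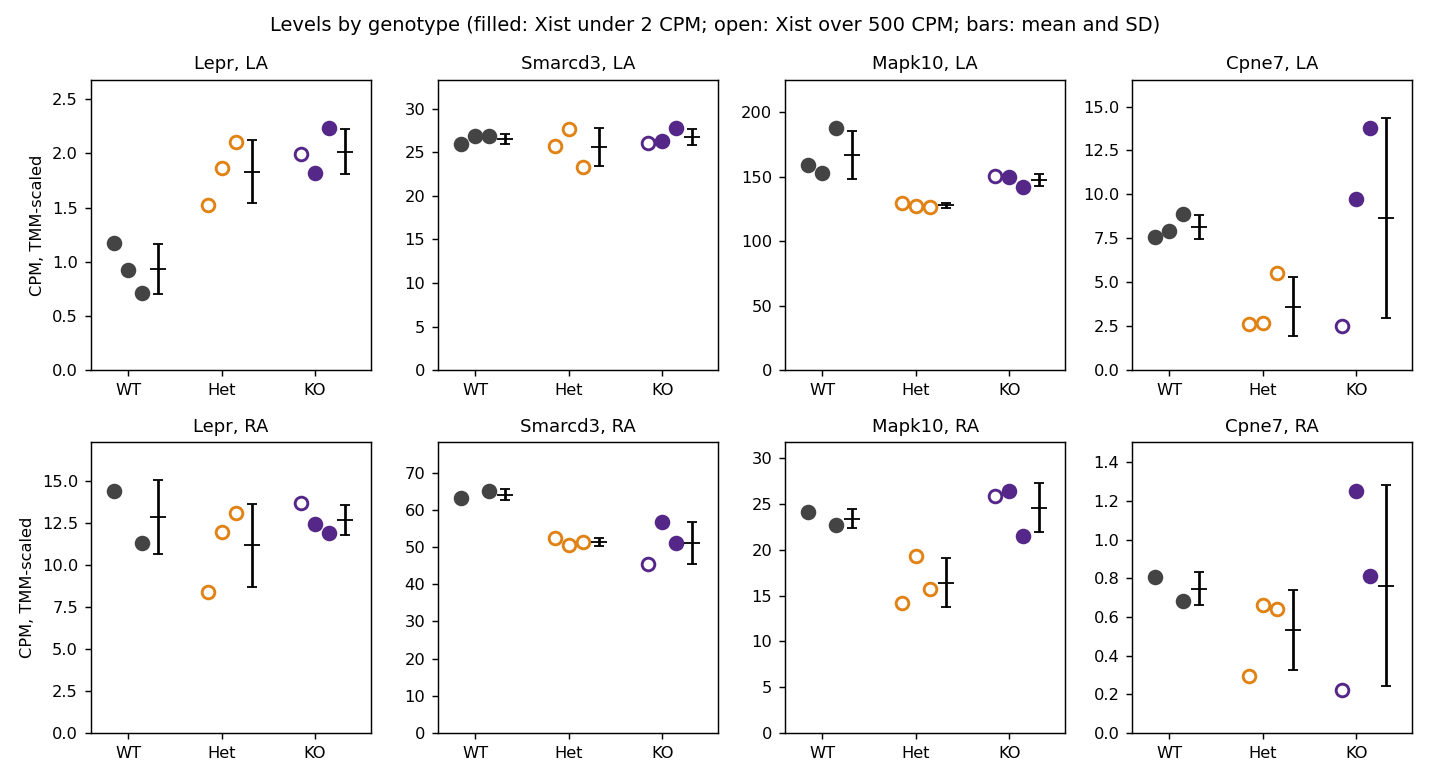
CPM of Lepr, Smarcd3, Mapk10 and Cpne7 by genotype in LA (upper row) and RA (lower row), with points for libraries (filled: Xist under 2 CPM; open: Xist over 500 CPM) and bars for mean and SD. WT lies below Het and KO for Lepr in LA and above them for Smarcd3 in RA, and the open Cpne7 points in LA all lie below the filled ones.

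Against WT, where values are a description with no test, the WT libraries of 2 of the 9 genes in LA and 2 in RA lay wholly on one side of all Het and KO libraries. The same was so for 19% of all tested genes in LA and 19.1% in RA, so the counts are near the background. Lepr in LA was at 0.936 ± 0.230 CPM in WT, 1.83 ± 0.292 in Het and 2.01 ± 0.208 in KO, a log2 difference of 0.93 (SE 0.24) and 1.08 (SE 0.23). Smarcd3 in RA was at 64.1 ± 1.43 in WT, 51.4 ± 0.998 in Het and 51.0 ± 5.64 in KO (log2 -0.32 and -0.33, SE 0.08 each). A2m in RA was at 23.3 ± 1.79 in WT, 33.6 ± 5.64 in Het and 36.6 ± 10.7 in KO (log2 0.53 and 0.65, SE 0.21 each). Mapk10 in LA was at 166 ± 18.6 in WT, 128 ± 1.85 in Het and 147 ± 4.83 in KO (log2 -0.38 and -0.18, SE 0.10 each). Among the WT LA libraries, replicate 3 had the lowest Lepr and the highest Mapk10. Leaving a WT library out cannot undo such a separation, so it is no check of it.

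Marker levels differed from WT in the same libraries. Fibroblast markers summed to 934 to 2423 CPM in WT LA, 2465 to 3279 in Het LA and 2049 to 3105 in KO LA, and to 1857 to 2051, 2493 to 2749 and 2043 to 2552 in RA. Endothelial markers summed to 921.1 to 1490 CPM in WT LA, 1501 to 1830 in Het LA and 1377 to 1602 in KO LA, and to 1572 to 1832, 1713 to 2229 and 1826 to 2029 in RA. Cardiomyocyte markers summed to 52510 to 63869 CPM in WT LA and 49468 to 52138 in WT RA, against at most 51193 and 45861 in Het and 54165 and 47987 in KO. Fibroblast sums were thus lower in every WT library than in every Het library of the same atrium, and cardiomyocyte sums higher, in RA also higher than in every KO library. The part of cell makeup in the differences from WT was not tested.

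Single genotypes gave further differences from WT. WT and Het libraries did not overlap for 3 of the 9 genes in LA and 5 in RA, those above included, against 31.3% and 32.8% of all tested genes. Mapk10 in RA was lower in every Het library than in WT (16.4 ± 2.66 against 23.4 ± 1.04 CPM), while KO overlapped WT. Scara5 in RA was higher in every Het library (2.85 ± 0.854 against 1.61 ± 0.0514 CPM), and Cpne7 was lower in every Het library than in every WT library in both atria. As the Het libraries all had high Xist and the WT libraries low Xist, genotype and this pattern cannot be told apart in Het against WT.

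KO and Het were compared directly, since this uses no WT library for the difference, and none of the 9 genes was called in either atrium. Of all 18018 genes 0 were called by edgeR in LA, RA or the difference between their right-left contrasts (0% each), with 937, 984 and 244 genes at an unadjusted p under 0.05, among them 2 of the 9 genes each time. DESeq2 called 13 genes in LA, 8 in RA and 0 in the difference. The interval of the KO to Het difference was narrow for Smarcd3 (-0.10 to 0.23 in LA and -0.17 to 0.15 in RA) and Mapk10 in LA (0.00 to 0.41), and wide for A2m (-0.60 to 2.48) and Arpp21 (-0.36 to 1.65) in LA and for Hmcn2 (-1.03 to 1.78) and Cpne7 (-1.10 to 2.21) in RA.

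Mapk10 came nearest to a KO to Het difference. In RA all 3 KO libraries were above all 3 Het libraries (24.6 ± 2.71 against 16.4 ± 2.66 CPM), which held for KO and Het libraries in 10.5% of all tested genes in RA, and its LA libraries were also apart, like those of Arpp21 and of 11.8% of tested genes in LA. The log2 difference was 0.58 (SE 0.10, interval 0.36 to 0.80), with an unadjusted p = 3.28e-05 and an edgeR adjusted p = 0.59. It was called by DESeq2 (adjusted p = 0.00432), without Het RA replicate 2 (edgeR adjusted p = 0.0391) and without a filter on low counts (edgeR adjusted p = 5.68e-07). The unfiltered fit gave far smaller p-values between the atria too. For Mapk10 in Het the edgeR adjusted p was 9.97e-206 there and 1.64e-11 with the filter, at log2 differences of -2.949 and -2.96. The right-left contrast of Mapk10 was smaller in KO by 0.38 (interval 0.08 to 0.68, edgeR adjusted p = 1).

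Scara5 in RA was lower in every KO library than in every Het library, a log2 difference of -0.89 (SE 0.36, edgeR adjusted p = 0.855). Its right-left contrast differed between KO and Het by -1.02 (interval -1.95 to -0.08, edgeR adjusted p = 1). Both were called when no filter on low counts was used (edgeR adjusted p = 1.02e-05 and 0.000315). In that fit the difference of the Scara5 atria in Het also had a far smaller edgeR adjusted p, 3.13e-191 against 2.51e-06 with the filter.

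Cpne7 in LA was at 3.62 ± 1.67 CPM in Het and 8.68 ± 5.69 in KO (log2 1.295, SE 0.51, interval 0.19 to 2.40, edgeR adjusted p = 0.925), and its libraries overlapped. Its level moved with the Xist pattern: the 4 LA libraries with high Xist held 2.54 to 5.54 CPM and the 5 with low Xist 7.60 to 13.8 CPM. In RA these were 0.22 to 0.664 CPM in 4 libraries and 0.684 to 1.25 CPM in 4. With Xist as a covariate the log2 difference of KO from Het was -0.43 in LA and -1.12 in RA (edgeR adjusted p = 0.99 and 0.964). Xist was low in all WT and high in all Het libraries, so within groups it varied widely only in KO. There replicate 1 alone had high Xist, so the adjusted values rest largely on that animal and cannot separate sex from genotype. When genes of low counts were kept, with no covariate, the LA difference of 1.301 was called (edgeR adjusted p = 4.07e-09). That unfiltered fit gave far smaller p-values for Cpne7 between the atria too. The part of sex in the Cpne7 level was not tested.

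Related genes, listed as relatives, partners or pathway members of each of the 9, mostly did not share the difference between atria. Of 76 such genes 60 were tested, and 5 were called higher and 5 lower in RA in Het, and 4 higher and 5 lower in KO. The share called was thus above that of all genes (7.69% in Het and 8.35% in KO), with no test of the list as a set. The median log2 difference of the 60 genes was 0.01 in Het and 0.00 in KO. None was called among the 6 tested kinase and scaffold genes around Mapk10, the 8 leptin signalling genes, the 5 relatives of Arpp21 or the 12 BAF subunits. Mapk8 and Mapk9, the other JNK genes, were at 40.4 and 34.7 CPM and at 88.4 and 94.7 CPM in Het LA and RA (edgeR adjusted p = 0.0532 and 0.33), and Smarcd1 and Smarcd2, the alternative BAF60 subunits, had log2 differences of 0.15 and -0.09 (edgeR adjusted p = 0.433 and 0.715).

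**Figure D4:**
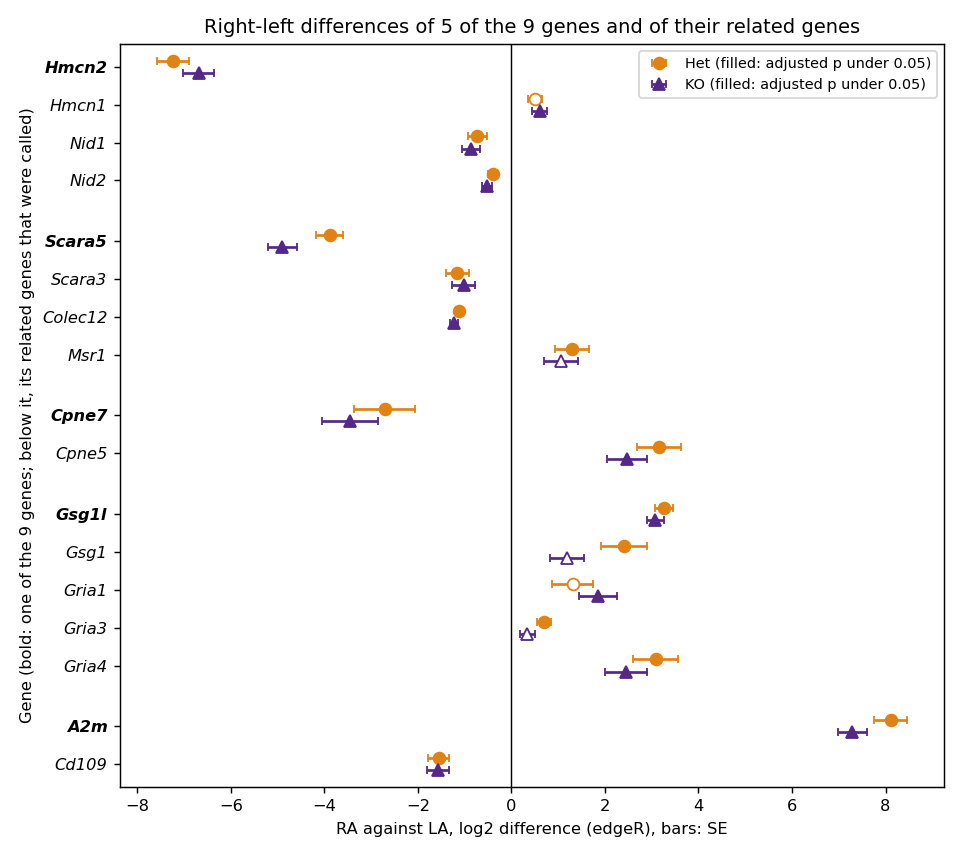
Log2 difference of RA from LA (edgeR, bars SE) in Het (circles) and KO (triangles) for 5 of the 9 genes, in bold, and for each of their related genes called in at least 1 genotype, filled where the adjusted p is under 0.05. Hmcn1, Cpne5, Msr1 and Cd109 lie on the other side of 0 from the gene they are listed with.

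In the Gsg1l list, Gria4 was called higher in RA in both genotypes, like Gsg1l, and Gria1, Gria3 and Gsg1 in only Het or only KO. Gria4, an AMPA receptor subunit, was at 0.557 ± 0.224 CPM in Het LA and 4.84 ± 0.807 in Het RA (log2 3.08, SE 0.48, edgeR adjusted p = 0.000789), and was called in KO too (2.45, edgeR adjusted p = 0.00234). Gria1 was called in KO (1.85, edgeR adjusted p = 0.00636) and not in Het (1.31, adjusted p = 0.0858), and Gria3 in Het (0.70, edgeR adjusted p = 0.00891) and not in KO (0.34, adjusted p = 0.218). Gsg1 was called in Het (2.40, edgeR adjusted p = 0.00466) and not in KO (1.19, adjusted p = 0.058). Of 13 listed genes 7 were tested, and none was called lower in RA. Cacng4, Cnih2 and Shisa9 were called in neither genotype, with log2 differences of 1.17, -0.17 and 0.83 in Het and -0.95, -0.19 and -0.35 in KO. Gsg1 and Gria1 were under 2 CPM in every group mean.

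Copine and matrix relatives went in both directions. Cpne5, another copine, was higher in RA, at 4.27 ± 1.87 CPM in LA and 36.9 ± 3.74 in RA in Het (log2 3.15, SE 0.47, edgeR adjusted p = 0.0013) and at 9.09 ± 5.83 and 50.5 ± 12.5 in KO (2.47, edgeR adjusted p = 0.00351), the reverse of Cpne7. The other 3 tested copines (Cpne2, Cpne3 and Cpne8) were not called. Hmcn1, the other hemicentin, was at 150 ± 10.6 and 212 ± 15 CPM in Het (log2 0.50, edgeR adjusted p = 0.0575) and was higher in RA in KO (0.60, edgeR adjusted p = 0.0221), the reverse of Hmcn2. The basement membrane genes Nid1 (-0.73 in Het and -0.87 in KO, edgeR adjusted p = 0.0387 and 0.0141) and Nid2 (-0.40 and -0.52, edgeR adjusted p = 0.0282 and 0.00426) were lower in RA, like Hmcn2.

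Among scavenger receptors, Colec12 was lower in RA like Scara5, at 107 ± 5.92 CPM in LA and 49.2 ± 4.37 in RA in Het (log2 -1.11, edgeR adjusted p = 2.82e-07) and by -1.23 in KO (edgeR adjusted p = 7.66e-08). Scara3 was also lower, by -1.16 in Het and -1.02 in KO (edgeR adjusted p = 0.00609 and 0.0158). Msr1, a macrophage scavenger receptor, was higher in RA in Het (1.299, edgeR adjusted p = 0.0478) and not called in KO (1.06, adjusted p = 0.106). Of the relatives of A2m, Cd109, a membrane-anchored member of the family, was lower in RA (-1.56 in Het and -1.57 in KO, edgeR adjusted p = 0.000189 and 0.000217), and Pzp was not called (0.23 and 0.18, adjusted p = 0.437 and 0.58).

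Genes known from right atrial and pacemaker identity were read in the same libraries. Bmp10 was at 2.98 ± 1.85 and 2.33 ± 0.226 CPM in LA and 7639 ± 465 and 8834 ± 403 in RA (log2 11.31 and 11.89, edgeR adjusted p = 1.55e-08 and 1.22e-08). The pacemaker channel gene Hcn4 was higher in RA in both (1.32 and 1.501, edgeR adjusted p = 0.0313 and 0.0103), and the T-box factor genes Tbx3 (0.36) and Tbx5 (0.26) in Het (edgeR adjusted p = 0.0418 and 0.0402). Shox2, Tbx18, Nkx2-5 and Vsnl1 were not called in either, with log2 differences from 0.11 to 1.19 in Het.

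Across the 17 libraries the genes whose log2 CPM followed each of the 9 most closely were also divided between the atria, as the measure over both atria selects for. Among 12502 candidates, Scara5 was nearest to Pla2g2d (Pearson r = 0.990) and Vtn, and Pla2g2d was also among the nearest of Hmcn2 (0.984). Mapk10 was nearest to Tmc7 (0.982), and Cpne7 to Abcb4 (0.967) and Map1lc3a. On the right, A2m was nearest to Bmp10 (0.987) and Smad9, Gsg1l to Efnb3 (0.988) and Smad9, Arpp21 to Cacna2d2 (0.978) and Efnb3, Smarcd3 to Cacna2d2 (0.982) and Hamp, and Lepr to Calhm5 (0.979) and Dbh. The libraries share animals, and r mainly reflects the gap between 9 LA and 8 RA libraries. After the group means were removed, the 9 genes followed each other little: r had a median of -0.04 over 16 pairs from the same side and 0.11 over 20 pairs from opposite sides, with a range from -0.54 to 0.73 over all pairs.

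Markers of the main cell types were mostly not called between the atria. Cardiomyocyte markers summed to 46288 to 51193 CPM in Het LA, 42223 to 45861 in Het RA, 49183 to 54165 in KO LA and 44887 to 47987 in KO RA, and 2 of 6 were lower in RA in Het (Tnnt2 and Myl7) and 3 in KO (also Ryr2). No fibroblast marker of 8, macrophage marker of 6 or epicardial marker of 6 was called in either genotype. Fibroblast sums were 2465 to 3279 CPM in Het LA and 2493 to 2749 in Het RA, and 2049 to 3105 and 2043 to 2552 in KO. Of 7 endothelial markers 1 was higher in RA in Het (Kdr) and 2 in KO (also Emcn). The part of cell makeup in the differences of the 9 genes was not tested.

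Some markers of smaller cell populations differed as well. Neuronal and Schwann cell markers summed to 11.97 to 15.04 CPM in Het LA and 30.2 to 35.2 in Het RA, and to 13.3 to 16.8 and 32.1 to 35.5 in KO, with Dbh higher in RA in both (3.51 and 2.89, edgeR adjusted p = 1.93e-07 and 6.48e-07) and Prph in Het. Sinus node markers summed to 9.18 to 9.81 CPM in Het LA and 12.3 to 20.8 in Het RA, and to 10.3 to 12.6 and 14.6 to 16.5 in KO. Of the 4 tested, 2 were called higher in RA in Het (Hcn4 and Tbx3) and 1 in KO (Hcn4). Shox2 and Vsnl1 were called in neither. Of 6 smooth muscle and pericyte markers Rgs5 was lower in RA in both genotypes (-1.27 and -1.68) and Abcc9 higher in Het. Of the adipocyte list only Pparg had enough counts to be tested (-0.48 in Het and -0.80 in KO, edgeR adjusted p = 0.0575 and 0.00205). Their part in the differences of Lepr, Gsg1l and the other genes was not tested.

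The 9 genes lie on 8 chromosomes, with only Mapk10 and Smarcd3 on the same one. Of the 18 nearest tested protein-coding genes on either side, 1 was called in Het and 5 in KO, against 7.69% and 8.35% of all genes. Arhgap24, 10011 bases from Mapk10, was lower in RA in both genotypes (-0.44 and -0.33, edgeR adjusted p = 0.000687 and 0.00763). The other 4 were called in KO: D430042O09Rik beside Gsg1l (0.38, edgeR adjusted p = 0.0111), Ass1 beside Hmcn2 (-0.55, edgeR adjusted p = 0.0338), Sult5a1 beside Cpne7 (-1.76, edgeR adjusted p = 0.00346) and Iqsec3 beside A2m (-1.38, edgeR adjusted p = 0.0225). Of the 5, 4 went in the direction of the gene beside them, and Iqsec3 went the opposite way. Leprot, the gene next to Lepr, was at 44.2 and 51.7 CPM in Het LA and RA (edgeR adjusted p = 0.0885). Gm43789, an unclassified transcript inside Mapk10 on its strand, was lower in RA too (-2.35 and -2.23, edgeR adjusted p = 0.0328 and 0.0194), and reads of the 2 cannot be told apart with certainty. Whether counting used strand is unknown, so reads of Arpp21 and of the antisense RNAs 2310075C17Rik and 2900079G21Rik, and of Smarcd3 and the overlapping Chpf2 (0.23 in Het, edgeR adjusted p = 0.385), cannot be told apart either. Cpne7 lies wholly inside Gm20388, a longer protein-coding gene on its strand that was not among the tested genes. Reads of Cpne7 and Gm20388 cannot be told apart with certainty.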

How the data were processed

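The authors deposited whole-number counts per gene ID, which were used as raw counts. Per the submitters' processing notes, the tools were STAR 2.7.9a and DESeq2 1.30.1, with genome build mm10. The sources used here do not give the counting tool, annotation release or strand setting. Of 56691 IDs, 52073 were matched by base ID to a GENCODE M21 symbol (GRCm38).

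All 17 libraries were fitted in edgeR 4.0.16 (R 4.3.3) with TMM scaling, filterByExpr at a minimum count of 10, robust quasi-likelihood fits and F tests, which left 18018 genes. P-values were adjusted by Benjamini-Hochberg over all of them, and an adjusted p under 0.05 counts as called. CPM carry TMM scaling, log2 levels use a prior count of 2, ± gives the SD between libraries, and intervals are at 95%. Poisson intervals are exact and cover counting error only. The fit was tested on simulated data with libraries drawn independently, so that test does not cover atria that share an animal.

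The 9 genes and all lists were chosen with earlier results of these data known. The 9 were picked on WT, so comparisons that use WT libraries are given without a test. Genes named beside them are the called members of the related lists, the measured members of the left-right list and, for each of the 9, the 2 genes with the highest Pearson correlation among genes of at least 1 CPM. A few genes that these rules pick, and what rests on them, are not reported here. Neighbouring genes and other list members are examples named after their values were seen.

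Replicate numbers mark animals by the title IDs, and LA and RA of 1 animal deviated together (correlation 0.213 to 0.411 in 7 pairs). Alternatives were DESeq2 1.42.0, limma-voom 3.58.1, RLE scaling, no filter, fewer libraries, an animal block, Xist as a covariate, the identical columns as 2 libraries, and each library left out.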

Additional observations from a re-analysis of the deposited data

How the results depend on the processing

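Over the alternatives, 1037 of 1050 recomputed values of the 9 genes were on the same side of the threshold as the value reported, 7 lost a call, 6 gained one and 0 were called with the opposite sign. Right against left, the other 8 genes were called in 23 of 23 alternatives in Het and in KO, and Cpne7 in 17 and 22 of 23. Without a filter on low counts the calls over all genes were 2213 for RA against LA in Het, 313 and 362 for KO against Het in LA and RA, and 27 for the difference between the contrasts. Among the 9 genes that fit called 1 in LA (Cpne7), 2 in RA (Mapk10, Scara5) and 1 in the difference (Scara5), and the cause was not tested. Its p-values for these genes between the atria were far smaller as well, with an edgeR adjusted p = 9.97e-206 against 1.64e-11 for Mapk10 in Het. DESeq2 called 13 genes in LA and 8 in RA for KO against Het, 1 of them among the 9 (Mapk10). With the replicate block (animal) and only Het and KO libraries, RA against LA gave 3240 calls in Het and 3226 in KO, and it changed no call of the 9 genes. Leaving out each library gave 952 to 1603 calls in Het, 1014 to 1735 in KO, 0 to 3 for KO against Het in LA and 0 to 1 in RA. Of the 9 genes, 8 to 9 were then called right against left in Het, 9 in KO, and 0 to 1 for KO against Het in RA. Where 1 WT RA library was left, it was assumed to vary like the other groups. Depth limits A2m, Arpp21 and Hmcn2 in their low atrium, where single libraries held as few as 2 counts.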
